A study of Mus musculus with 8 samples.

Results

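Ighd-low B cells were B lineage cells of mouse long bone that carried heavy chain Ighm and the CD20 gene Ms4a1 but almost no Ighd, the constant region of IgD. They were selected on UMIs (unique molecular identifiers, 1 per captured mRNA molecule): Cd79a of at least 2, Cd79b of at least 1, Ighm of at least 3, Ms4a1 of at least 1 and Ighd below 2. Rag1, Vpreb1, Igll1 and Dntt together had to be at 0, Mki67 and Top2a together below 2 and S100a8 with S100a9 below 2% of UMIs. Of 12253 barcodes with over 500 and under 8000 detected genes and under 20% mitochondrial UMIs, 1339 met the rule. The rule therefore fixed the levels of these genes, which are given as description only.

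The series studied a high-fat diet (HFD) model of type 2 diabetes and its effects on bone. Male C57BL/6J mice received a normal diet (ND) or HFD with 60% of calories from fat for 12 weeks from 4 weeks of age and were 16 weeks old at collection. Left femurs and tibias were digested with collagenase and dispase, and the tissue was labelled periosteum. The labels listed 4 samples per diet, but the deposited counts were 1 pooled matrix per diet, so cells could not be traced to mice and differences between diets had no replicate check. The ND library held 48558889 UMIs in 6314 barcodes, of which 6029 were kept, and the HFD library held 49940976 UMIs in 6636 barcodes, of which 6224 were kept. Whole bones entered the digest, so an origin of these cells in marrow or in periosteum cannot be told apart.

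B cells in bone marrow rearrange their heavy chain genes first and their light chain genes second, and become immature B cells when a complete IgM reaches the surface. IgM and IgD heavy chains come from one primary transcript, and IgD appears by alternative splicing, helped by the nuclear protein Zfp318, as the cell matures. Over the same steps B cells lose precursor genes such as Vpreb3, Sox4 and Myb and gain MHC class II and CD23 (Fcer2a). In the mm10 build, Ighm lies at chr12:113418558-113422730 and Ighd directly downstream at chr12:113406604-113416324, both on the minus strand. Igkc, the kappa light chain constant region, lies at chr6:70726435-70726966 on the plus strand, and the lambda constant regions Iglc1 (chr16:19061618-19062071), Iglc3 (chr16:19065230-19065681) and Iglc2 (chr16:19198396-19200351) lie on the minus strand.

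Promoter sequences are shown for Vpreb3 and H2-Aa, since these genes stood on opposite sides of the comparisons below. Vpreb3 encodes a surrogate light chain related protein and H2-Aa the alpha chain of the class II molecule I-A. The windows run from 250 bases before to 50 after the annotated start in RefSeq (GRCm38.p6): Vpreb3 at chr10:75948050-75948349 on the plus strand and H2-Aa at chr17:34287774-34288073 on the minus strand. Capitals mark the octamer ATTTGCAT, bound by Oct family factors in B cell promoters, in Vpreb3 and the Y box CTGATTGG, known from class II promoters, in H2-Aa.
Vpreb3: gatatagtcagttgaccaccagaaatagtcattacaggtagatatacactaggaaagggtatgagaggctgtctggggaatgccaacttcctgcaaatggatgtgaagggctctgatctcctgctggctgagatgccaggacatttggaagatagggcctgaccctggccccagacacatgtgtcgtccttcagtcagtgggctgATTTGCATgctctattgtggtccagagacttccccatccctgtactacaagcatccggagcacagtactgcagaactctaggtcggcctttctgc
H2-Aa: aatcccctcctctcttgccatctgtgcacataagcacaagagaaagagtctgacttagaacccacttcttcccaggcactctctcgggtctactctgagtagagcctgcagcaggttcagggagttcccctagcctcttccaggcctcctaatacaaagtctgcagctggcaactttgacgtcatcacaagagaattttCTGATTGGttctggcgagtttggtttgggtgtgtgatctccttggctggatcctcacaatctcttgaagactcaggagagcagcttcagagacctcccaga
The octamer began 45 bases before the start of Vpreb3 and the Y box 51 bases before that of H2-Aa, each on the strand of its gene. Both motifs were searched on both strands, and their letters do not overlap each other. The octamer was in 1.74% and the Y box in 4.10% of 32851 promoter windows. Among the immature B cell genes, 2 of the 11 with a window held the octamer (Vpreb3 and Ypel3) and 1 the Y box (Sox4). Among the class II genes, 3 of the 7 with a window held the Y box (H2-Aa, H2-Eb1 and H2-Oa) and 0 the octamer. A match describes these letters and is not evidence of binding.

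Ighd-low cells numbered 734 in the ND and 605 in the HFD library. They were 12.2% of kept cells in ND (95% Clopper-Pearson interval 11.4 to 13.0) and 9.72% in HFD (8.99 to 10.5). Ighd-positive B cells, which met the same rule except for 2 or more Ighd UMIs, numbered 213 and 208. Resting precursors, with at least 1 UMI of Rag1, Vpreb1, Igll1 or Dntt and the same Cd79a, Cd79b, cycling and S100 limits, numbered 197 and 281. Of the gated B lineage cells, Ighd-low cells made up 64.2% in ND (61.3 to 66.9) and 55.3% in HFD (52.3 to 58.3), while precursors made up 17.2% (15.1 to 19.5) and 25.7% (23.1 to 28.4). Ighd-positive cells were at 18.6% and 19.0%. The intervals of the Ighd-low and the precursor shares did not overlap between the libraries, but they cover counting error only, and diet and library cannot be told apart. Median depth was close, at 3770 UMIs and 1424 genes per Ighd-low cell in ND and 3827 UMIs and 1467 genes in HFD. In ND, adding the conditions in turn left 1662 barcodes after Cd79a, 1067 after Ms4a1 and 947 before the Ighd limit. In HFD the same steps left 1591, 936 and 813. The libraries shared 15 barcode sequences, and 0 of these were Ighd-low cells in both.

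A few barcodes within the rule stood apart and are named before the results. In HFD, 2 members with at least 10 UMIs of Jchain, the joining chain of secreted IgM, held 54075 and 50714 UMIs. The first had 9863 Ighm and 21732 Iglc2 UMIs, and the second 4790 Ighm and 25300 Igkc UMIs. Together they held 4.07% of the HFD members' UMIs but 52.8% of Ighm, 41.8% of Igkc, 75.1% of Iglc2 and 99.6% of Jchain UMIs. Ighm stood at 10767 UMIs per 1000000 over all HFD members and at 5298 without these barcodes, against 4832 in ND. The median Ighm count was 19 UMIs per cell in ND and 21 in HFD. The ND members held 0 such barcodes.

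A further 14 ND and 15 HFD members carried at least 10 UMIs of macrophage, mesenchymal or T cell genes. They were 1.91% and 2.48% of members and held 5.70% and 7.14% of their UMIs. All 10 mesenchymal and endothelial genes had a UMI in both libraries, and together they stood at 668 UMIs per 1000000 in ND, led by Dcn (306), and at 3622 in HFD, led by Sparc (1152). All 12 macrophage and dendritic genes had a UMI in ND, at 408 per 1000000, and 11 in HFD (Xcr1 at 0), at 161, led in both by Bst2 (142 and 129), which B cells also express. T and NK genes summed to 76.2 in ND (10 of 10 with a UMI) and 57.4 in HFD (9 of 10, Cd8a at 0), led by Trbc2 (18.2) and Nkg7 (21.3). The 10 neutrophil genes outside the rule summed to 841 in ND, led by Lyz2 (371), and 776 in HFD, led by Ngp (204). The 6 erythroid genes summed to 429 and 318, led by Hbb-bs (198 and 160). Their direction between the libraries rested on few barcodes. The median log2 ratio of HFD over ND was -0.46, but 0.44 with each cell at the same weight and 0.84 without both kinds of barcodes. The plasma cell list summed to 1080 in ND (9 of 10 genes, Tnfrsf17 at 0), led by Hsp90b1 (640), and to 3986 in HFD (10 of 10), led by Jchain (2814). A summed level weighs deep cells more, so values without both kinds of barcodes (720 ND and 588 HFD members left) are given beside the results that rest on them.

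The genes given with the label were at high levels. Ly6d, a surface protein of early B lineage commitment, stood at 5350 UMIs per 1000000 in ND and 5764 in HFD Ighd-low cells, at 2693 and 3016 in Ighd-positive cells and at 2390 and 3337 in precursors. Vpreb3 stood at 1359 and 1464 in Ighd-low cells, 513 and 541 in Ighd-positive cells and 3187 and 3521 in precursors. Ms4a1, used by the rule, stood at 1880 and 1936. Iglc2 stood at 3138 in ND and at 2922 in HFD without the Jchain barcodes. A Vpreb3 UMI was found in 87.7% of ND and 91.4% of HFD Ighd-low cells (63.9% and 69.0% at 1000 UMIs per cell), against 3.54% and 1.67% of T cells (1.19% and 0.556%). T cells, which should lack the gene, were taken as 254 ND and 180 HFD cells with at least 2 UMIs of Cd3d, Cd3e and Cd3g and 0 of Cd79a and Cd79b, and their median depth was 6471 and 6704 UMIs. Cd93, the classic marker of immature and transitional B cells, was found in 22.3% and 20.3% of Ighd-low cells, 9.86% and 10.1% of Ighd-positive cells and 3.54% and 2.22% of T cells. At 1000 UMIs per cell it was found in 8.33% and 6.46% of Ighd-low and 4.23% and 1.44% of Ighd-positive cells. Ly6d was thus highest in Ighd-low cells of the 3 B lineage groups, and Vpreb3 was in between.

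Against Ighd-positive cells, Ighd-low cells held more of the immature genes in both libraries. Of 18 measured immature and transitional genes (at least 50 UMIs over the cells compared), 9 were at least 2-fold higher in ND and 0 lower, where 5.08% of all 6451 genes tested were 2-fold higher and 1.46% lower. In HFD 7 of 17 were 2-fold higher and 0 lower, against 5.58% and 1.92% of 6106 genes. The list median was a log2 ratio of 1.03 in ND and 0.98 in HFD, beside 0.14 and 0.09 over all genes. With every cell thinned to 2000 UMIs before the rule, it was 0.48 (-0.06 to 1.21) in ND and 0.59 (-0.09 to 1.26) in HFD. Members and Ighd-positive cells were split on Ighd in the same libraries, so these ratios describe the split and were not tested.

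Sox4, a transcription factor of progenitor B cells, stood at 385 UMIs per 1000000 in ND and 338 in HFD Ighd-low cells against 118 and 84.4 in Ighd-positive cells. Its log2 ratio was 1.70 in ND (counting interval 1.43 to 2.00) and 1.99 in HFD (1.66 to 2.36). Akap12, a kinase scaffold, had log2 ratios of 1.45 and 1.51, and Myb, a transcription factor of progenitors, of 1.12 and 1.57. Vpreb3 was 2.65-fold higher in ND and 2.70-fold in HFD. Spib, an Ets factor of B cells, was 2.20-fold and 2.19-fold higher. These genes lay on the same side in both libraries, with every counting interval named above 0. Cd93 had log2 ratios of 0.83 (0.37 to 1.35) and 0.82 (0.29 to 1.42), and Cd24a, the heat stable antigen, of 0.69 and 0.98. Lef1, a precursor gene, gave 0.93 in ND and -0.02 in HFD and was the 1 gene measured in both libraries whose signs differed.

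The mature genes went the other way. Of 20 mature B cell genes, 8 were at least 2-fold lower and 0 higher in Ighd-low cells in each library. Of all genes tested, 1.46% in ND and 1.92% in HFD were 2-fold lower, and 5.08% and 5.58% higher. The list medians were -0.71 in ND and -0.74 in HFD. After thinning to 2000 UMIs before the rule they were -0.56 (-1.12 to 0.17) and -0.28 (-0.96 to 0.29), with intervals that span 0. Fcer2a stood at 128 and 97.0 UMIs per 1000000 in Ighd-low cells against 326 and 268 in Ighd-positive cells. Gpr183, a receptor that guides B cells within follicles, was 3.25-fold and 2.72-fold lower, and Itgb7, an integrin chain of gut homing, 4.80-fold and 4.58-fold lower. Zfp318, the factor needed for IgD splicing, stood at 41.7 and 53.1 in Ighd-low cells against 109 and 120, a log2 ratio of -1.38 (-1.76 to -0.99) in ND and -1.18 (-1.56 to -0.80) in HFD. Of the 20 genes, 16 lay below 0 and 4 above in ND, and 17 and 3 in HFD. Among those above was Tnfrsf13c, the BAFF receptor, at 545 and 550 against 305 and 295, with log2 ratios of 0.84 and 0.90.

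MHC class II genes were also lower in Ighd-low cells. Of 13 class II presentation genes, 5 in ND and 7 in HFD were at least 2-fold lower, where 1.46% and 1.92% of all genes tested were lower. The medians were -0.87 and -1.15. H2-Aa stood at 1783 and 1806 UMIs per 1000000 against 4652 and 4894 in Ighd-positive cells. H2-Ab1, the I-A beta chain, was 2.26-fold and 2.37-fold lower, and H2-Eb1, the I-E beta chain, 2.42-fold and 2.54-fold lower. Cd74, the invariant chain, differed less, by log2 ratios of -0.46 in both libraries. Ciita, the class II transactivator, stood at 28.8 and 23.7 against 50.7 and 52.9. Cd40, the receptor for T cell help, was the 1 gene of the list above 0, with log2 ratios of 0.49 and 1.01, past 2-fold in HFD.

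Against resting precursors the same lists pointed in the opposite directions. Immature genes had a median log2 ratio of -1.21 in ND, with 12 of 18 at least 2-fold lower and 1 higher, where 5.7% of 6646 genes were 2-fold lower and 4.71% higher. In HFD the median was -1.29, with 13 of 19 lower and 0 higher, where 6.45% of 6542 genes were lower and 5.17% higher. The 1 higher gene was Ly6d, 2.24-fold in ND and 1.73-fold in HFD. Class II genes were at least 2-fold higher in 11 of 13 in each library, with medians of 1.97 and 1.86, and mature genes in 10 of 19 in ND and 9 of 18 in HFD, with medians of 1.03 and 1.09. Il7r, the IL-7 receptor chain of early B cells, stood at 15.9 and 11.6 UMIs per 1000000 in Ighd-low cells and at 251 and 265 in precursors. Recombination and pre-B receptor genes outside the rule had medians of -0.63 and -0.96, with 4 of 10 and 5 of 11 at least 2-fold lower. Il7r stands in this list and in the immature one. Precursors were chosen by at least 1 UMI of Rag1, Vpreb1, Igll1 or Dntt and members by 0. Ratios between these groups therefore describe this split and were not tested. Of the cell cycle genes outside the rule, 1 of 9 in ND and 5 of 11 in HFD were at least 2-fold lower than in precursors and 0 higher, and 0 of 9 differed by 2-fold from Ighd-positive cells in either library.

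**Figure D1:**
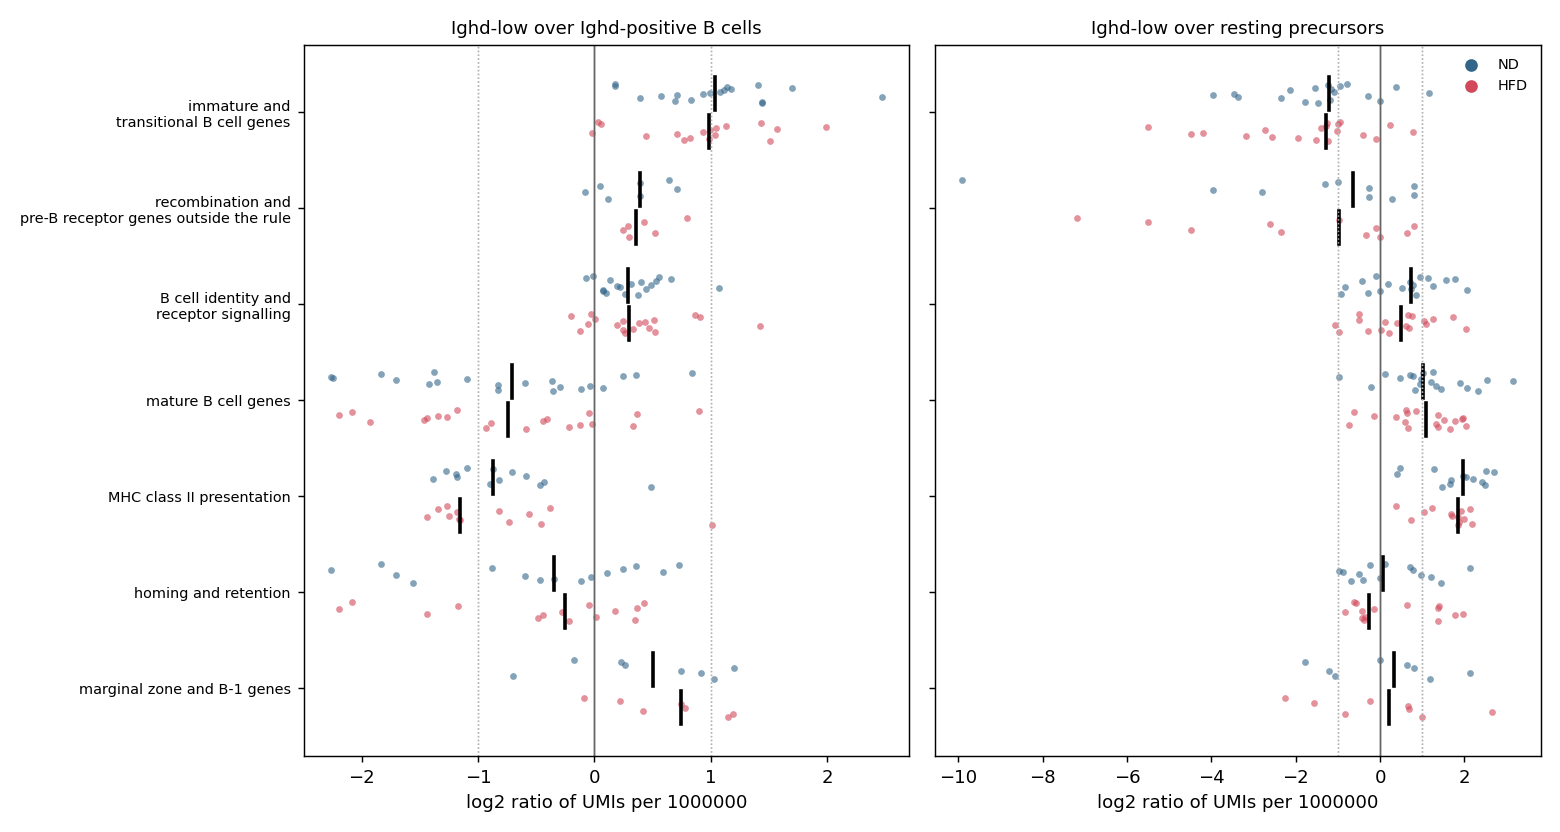
Log2 ratio of UMIs per 1000000 for each measured gene of 7 lists (points) and the list median (black bars), Ighd-low over Ighd-positive B cells (left) and over resting precursors (right), in ND and HFD. Dotted lines mark 2-fold; the immature list lies right of 0 in the left panel (medians 1.03 and 0.98) and left of 0 in the right panel (-1.21 and -1.29), and the class II list shows the reverse.

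The 10 genes that led the Ighd-low side in both libraries were not B cell genes. By the smaller of both ratios they were Chad, Abi3bp, Serpinf1, Olfml3, Serpinh1, Dcn, Ogn, Sparc, Ecrg4 and Mgp, which are matrix and mesenchymal genes. Of the Dcn UMIs of Ighd-low cells, 93.4% in ND and 94.7% in HFD lay in the 14 and 17 unusual barcodes. Without those barcodes, in a ranking made after the values were seen, the leading genes were Gas7, Slamf9, Adssl1, Coq7, Slco4a1, Sox4, Akap17b, Tram2, Spp1 and Hpse. Slamf9, a receptor of the SLAM family, then stood at 84.7 and 86.9 UMIs per 1000000 against 20.4 and 16.3, with log2 ratios of 2.02 (1.36 to 2.84) and 2.37 (1.64 to 3.31). Coq7, an enzyme of ubiquinone synthesis, stood at 121 and 130 against 32.8 and 37.2. Among the 10 genes that led the other side were Itgb7, Tagap, Gimap3, Plaur, Wfdc17, Stap1, Gimap4, Cd14 and H2-Eb2, a set with lymphocyte and myeloid genes. Of the 86 Cd14 UMIs in ND Ighd-positive cells, 65 lay in 1 cell. Without the unusual barcodes Itgb7, Gimap4, Gimap3 and Tagap were again in this set, joined by Apoe, Hcst, Stat4, Smagp and Bcl2a1b. The immature, mature and class II medians against Ighd-positive cells stayed within their counting intervals when these barcodes were left out.

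Several genes already differed between members with 0 and 1 Ighd UMIs. Of the ND members 572 had 0 Ighd UMIs and 162 had 1, and of the HFD members 474 and 131. Just inside the limit, at 1 Ighd UMI, Vpreb3 stood at 1069 in ND and 1138 in HFD, and just outside, at 2 UMIs (101 and 76 cells), at 661 and 825 UMIs per 1000000. Members at 0 stood at 1446 and 1546, and cells with 5 or more at 290 and 259. H2-Aa stood at 1489 and 1564 at 0, at 2763 and 2765 at 1, at 4056 and 3865 at 2 and at 5709 and 5411 at 5 or more Ighd UMIs. Fcer2a stood at 102 and 84.1 at 0, at 215 and 148 at 1 and at 304 and 275 at 2. Sox4 stood at 426 and 354 at 0, at 247 and 277 at 1 and at 184 and 120 at 2. Cells at 1 were thus between cells at 0 and at 2 for these 4 genes in both libraries. By the difference in level, the larger step lay inside the rule (0 to 1) in one library and across its limit (1 to 2) in the other for each of them. In ND these differences were equal within counting error for Vpreb3 and H2-Aa. As ratios, the larger step of H2-Aa lay inside the rule and that of Vpreb3 across its limit in both libraries. Ly6d and Zfp318 also lay between at 1, and their larger step by difference also varied between the libraries. Ly6d stood at 5717, 4131 and 3334 at 0, 1 and 2 Ighd UMIs in ND and at 5805, 5606 and 3920 in HFD. Zfp318 stood at 40.9, 44.5 and 83.5 in ND and at 48.1, 73.1 and 93.8 in HFD. Median depths ran from 3680 to 4348 UMIs over these groups, and deeper cells are more likely to show an Ighd UMI.

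**Figure D2:**
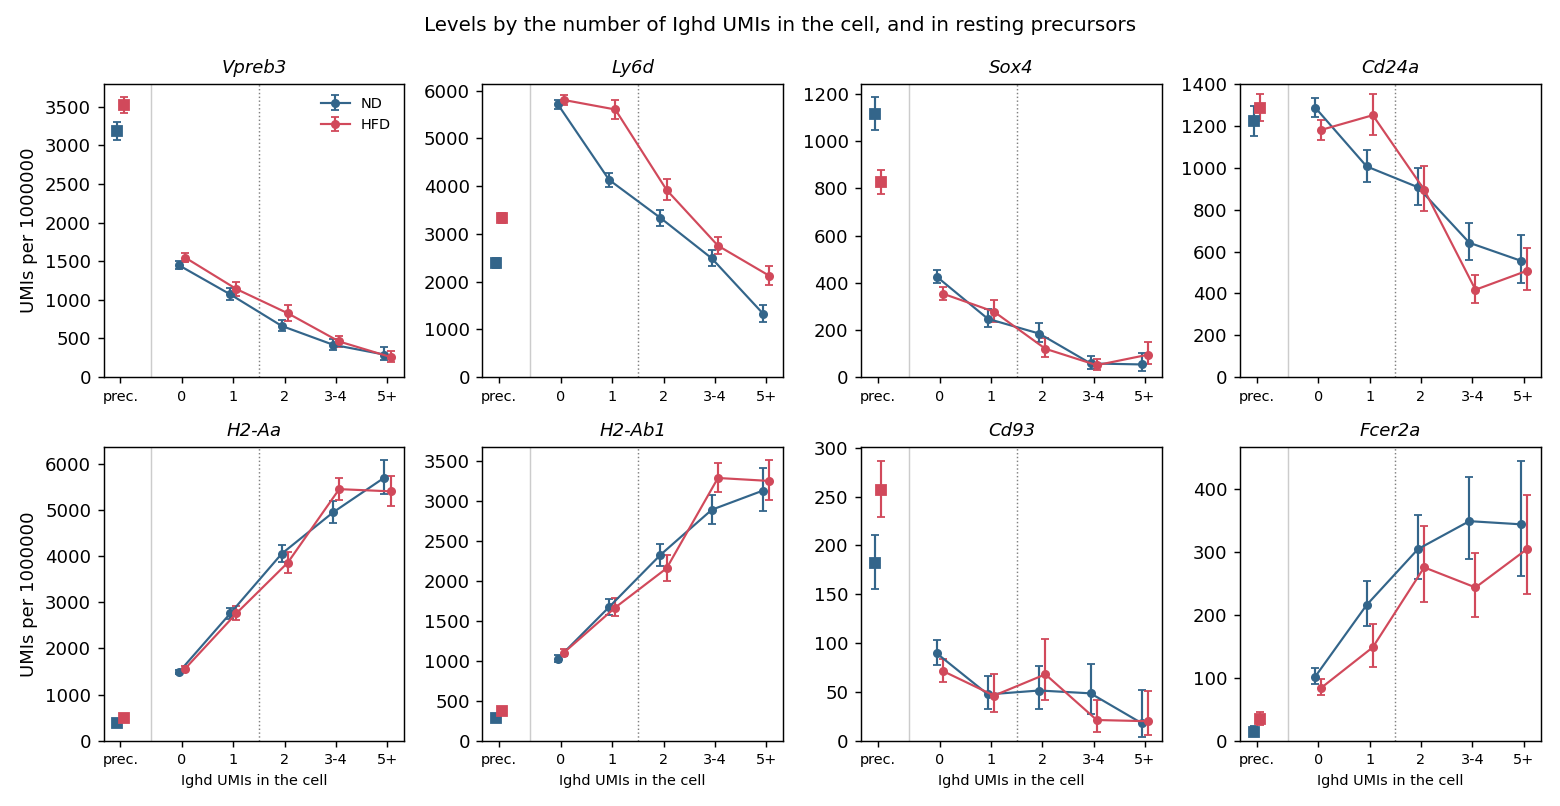
Level of 8 genes in UMIs per 1000000 (linear axis from 0) by the number of Ighd UMIs in the cell, with 95% Poisson intervals, for ND and HFD; squares are resting precursors and the dotted line is the limit of the rule. Vpreb3 and Sox4 step down and H2-Aa and Fcer2a step up from 0 to 2 Ighd UMIs, with cells at 1 between cells at 0 and 2.

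Ighd-low cells differed among themselves in class II. H2-Aa was at 0 in 26.2% of ND and 32.7% of HFD members, at 1 to 4 UMIs in 27.2% and 22.1%, at 5 to 14 in 29.8% and 27.9% and at 15 or more in 16.8% and 17.2%. This split was chosen after the values were seen. Cd74 stood at 8531 and 8524 UMIs per 1000000 in members at 0 and at 26343 and 27905 in those at 15 or more. Vpreb3 stood at 1897 and 1860 in members without H2-Aa and at 581 and 616 in those at 15 or more. Sox4 stood at 547 and 476 against 102 and 52.6. Fcer2a stood at 76.5 and 101 against 228 and 132, with the lowest levels at 1 to 4 H2-Aa UMIs (73.4 and 58.9). The members with 15 or more H2-Aa UMIs (123 and 104 cells) thus had Vpreb3 levels near the 513 and 541 of Ighd-positive cells, and their label as immature was the least clear by these genes. Median depth was 3502 and 3593 UMIs in the first group and 4123 and 4008 in the last, and the part of depth in this split was not tested.

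**Figure D3:**
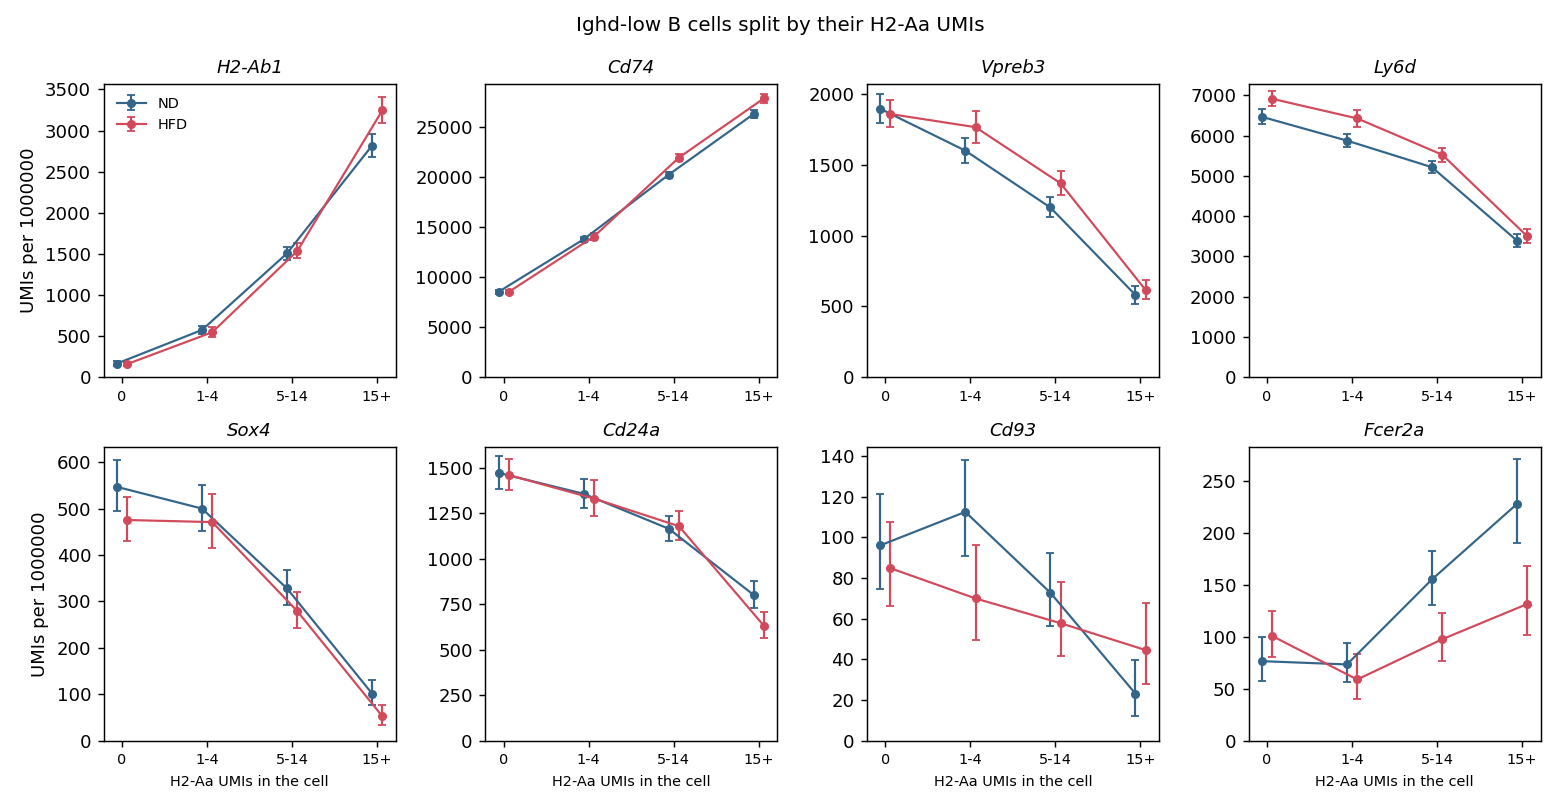
Level of 8 genes in UMIs per 1000000 (linear axis from 0) in Ighd-low B cells split by their own H2-Aa UMIs, with 95% Poisson intervals, for ND and HFD. H2-Ab1, Cd74 and Fcer2a are highest at 15 or more H2-Aa UMIs, where Vpreb3 (581 and 616) and Sox4 (102 and 52.6) are lowest.

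Light chain genes were outside the rule. A cell was called lambda where Iglc1, Iglc2 and Iglc3 together exceeded Igkc and kappa where Igkc exceeded them, given at least 3 light chain UMIs. In ND 192 Ighd-low cells were lambda and 534 kappa, a lambda share of 26.4% (95% Clopper-Pearson interval 23.3 to 29.8). In HFD 141 were lambda and 462 kappa, a share of 23.4% (20.1 to 27.0). Ighd-positive cells were at 21.0% (15.7 to 27.1) in ND and 9.71% (6.03 to 14.6) in HFD. The intervals of Ighd-low and Ighd-positive cells overlapped in ND and did not in HFD, and no test of the difference was made. Under the strict call described next they overlapped in both libraries.

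The call is a cut through a broad range. Lambda made up 30 to 70% of light chain UMIs in 289 of the 734 ND and 212 of the 605 HFD Ighd-low cells. With at least 10 light chain UMIs and 90% of one class, only 153 ND and 129 HFD members could be called, and 37.25% (29.6 to 45.4) and 32.6% (24.6 to 41.4) of them were lambda. In Ighd-positive cells the strict shares were 24.4% (12.4 to 40.3) and 17.2% (8.59 to 29.4). Cells called kappa held a median of 62 and 64 Igkc UMIs, and Iglc1 was also found in 81.7% and 77.3% of them, Iglc2 in 70.4% and 71.6% and Iglc3 in 93.6% and 95.7%. Over all Ighd-low cells Iglc1 was found in 85.7% and 82.3%, against 1.97% and 0.556% of T cells, and Igkc in 95.5% and 96.0%, against 23.6% and 26.7% of T cells. The share of kappa-called cells with Iglc1 was thus far above that of T cells, while Igkc had a higher background. Iglc2 and Iglc3 are not compared with T cells here, and the T cells were chosen without Cd79a and Cd79b UMIs.

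Among cells called kappa, the share with Iglc1 was higher and the share with Iglc2 lower in Ighd-low than in Ighd-positive cells, with intervals that did not overlap and no test of the difference. Kappa-called Ighd-positive cells held Iglc1 in 53.0% (45.1 to 60.8) in ND and 43.0% (35.8 to 50.5) in HFD, below the shares of kappa-called Ighd-low cells (78.1 to 84.8 and 73.2 to 81.0). They held Iglc2 in 89.2% (83.4 to 93.5) and 82.8% (76.6 to 87.9), above those of kappa-called Ighd-low cells (66.3 to 74.2 and 67.3 to 75.7). At 1000 UMIs per cell, Iglc1 was found in 70.8% and 66.1% of all Ighd-low and 39.9% and 28.9% of all Ighd-positive cells, and Iglc2 in 65.0% and 63.1% against 70.9% and 64.4%. These shares are over all cells and were not computed within the kappa class. Iglc2 and Iglc3 are near copies of each other, so the division of reads between them is uncertain, and it was not tested here.

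**Figure D4:**
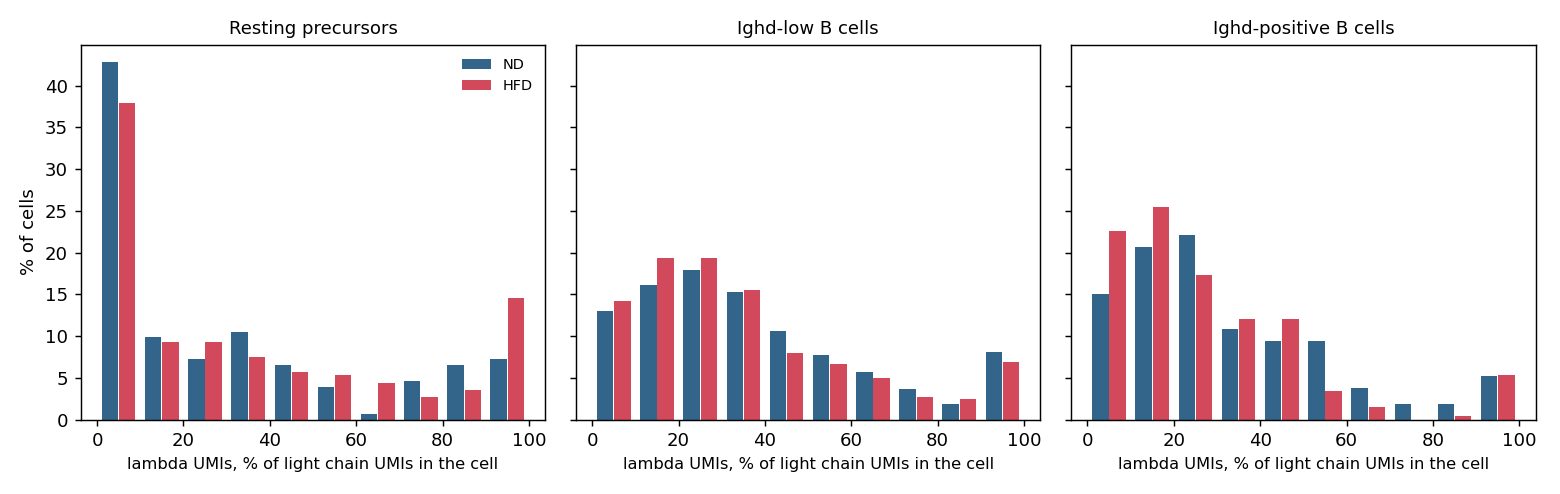
Share of cells (%, bars from 0) by the percent of light chain UMIs that were lambda, in steps of 10, for resting precursors, Ighd-low and Ighd-positive B cells in ND and HFD, cells with at least 3 light chain UMIs. Ighd-low cells fill the whole range, with 289 ND and 212 HFD cells between 30 and 70% lambda.

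Between the diets, B cell programmes of Ighd-low cells lay close together. Over 7491 genes with at least 50 UMIs, 1.28% were at least 2-fold higher and 0.948% at least 2-fold lower in HFD, and the median log2 ratio of all genes was 0.00. None of the 18 immature, 20 mature, 18 identity and receptor signalling, 13 class II and 15 homing genes differed by 2-fold, and the list medians were 0.11, -0.14, -0.02, 0.02 and -0.18. Without the unusual barcodes these medians were 0.19, -0.04, 0.06, -0.005 and -0.08. The interval of the immature list was then 0.006 to 0.34. Of 14 BAFF receptor and survival genes 1 was at least 2-fold lower in HFD (Bcl2a1b, -1.16), and of 4 light chain genes 1 was at least 2-fold higher (Iglc2). In the cells left without the unusual barcodes, 0 genes of these 2 lists passed 2-fold. HFD over ND gave log2 ratios of 0.11 (0.04 to 0.17) for Vpreb3, 0.11 (0.08 to 0.14) for Ly6d, -0.19 (-0.31 to -0.06) for Sox4 and 0.02 (-0.04 to 0.08) for H2-Aa. Without the unusual barcodes Sox4 was at -0.12 (-0.25 to 0.01), an interval that spans 0. In HFD without the Jchain barcodes, Vpreb3 stood at 1526 UMIs per 1000000 and Ly6d at 5972, against 1359 and 5350 in ND. Cr2, the complement receptor of mature B cells, stood at 25.8 UMIs per 1000000 in ND and 13.6 in HFD, with a log2 ratio of -0.92 (-1.55 to -0.34).

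Of 25 measured immediate-early and dissociation genes, 2 were at least 2-fold lower in HFD and 0 higher, where 0.948% of all genes were 2-fold lower. Of the 25, 19 lay below 0 and 6 above, and the median log2 ratio was -0.52. The genes past 2-fold were the heat shock genes Hspa1a, at 1352 UMIs per 1000000 in ND and 519 in HFD, and Hspa1b, at 1461 and 632. Fos stood at 833 and 495, Jun at 1997 and 1320, and Dusp1, a phosphatase induced by stress, at 208 and 111. Klf2, a factor of lymphocyte quiescence from the mature list, stood at 5592 and 3589. Egr3 and Egr1 were not lower, with log2 ratios of 0.96 (0.61 to 1.32) and 0.11 (-0.03 to 0.24). The same list had a median of -0.55 in Ighd-positive cells, where Hspa1a stood at 3446 and 1532. In precursors Hspa1a stood at 1083 and 427, and in T cells it was found in 38.7% of ND and 23.9% of HFD cells at 1000 UMIs per cell. Dissociation induces these genes, and diet, dissociation and library cannot be told apart.

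Interferon-stimulated genes had a median log2 ratio of 0.38, with a median of the counting intervals from -0.11 to 0.66. Of 13 genes, 2 were at least 2-fold higher in HFD and 0 lower, where 1.28% of all genes were higher and 0.948% lower. With the unusual barcodes left out, 1 of 13 was at least 2-fold higher, beside 17 of 7070 genes tested, and the median was 0.44. Ly6a (Sca-1) stood at 35.4 UMIs per 1000000 in ND and 105 in HFD, a log2 ratio of 1.57 (1.25 to 1.91), or 0.99 when each cell had the same weight. The paper also uses Ly6a to mark mesenchymal progenitors, and the mesenchymal list was higher in HFD (median 2.40, below). Without the unusual barcodes Ly6a was not among the 10 highest genes, the last of which was at 1.23. The part of mesenchymal RNA in its value was not tested. Rtp4 had a log2 ratio of 1.14 (0.48 to 1.85), from 29 ND and 55 HFD UMIs. Ifi27l2a stood at 560 and 826, and was also higher in Ighd-positive cells of HFD, with log2 ratios of 0.56 and 0.63. Xaf1 gave 0.38 and Ly6e gave 0.00.

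The genes that differed most between the diets lay mostly in the unusual barcodes and were largely genes of skeletal cells, macrophages and antibody secretion. The 10 highest in HFD were Wif1, Jchain, Crispld1, Igkv6-32, Acan, Ibsp, Comp, Ighv9-3, Tnn and Scrg1, and the 10 lowest were C1qa, Vsig4, C1qc, C1qb, Lyve1, Igf1, Acta2, Trem2, Tagln and Tnf. Wif1, a Wnt inhibitor of skeletal cells, was found in 8 HFD cells, and 327 of its 334 UMIs lay in 1 of them. C1qa, a complement gene of macrophages, was found in 16 ND and 5 HFD cells, with 147 of the 257 ND UMIs in 1 cell. The mesenchymal list had a median log2 ratio of 2.40, with 6 of 8 genes at least 2-fold higher, where 1.28% of all genes were. For this list 13 HFD and 9 ND cells held 10 or more UMIs. Without the unusual barcodes, which these genes helped to define, 5 genes were measured, 3 were higher and the median was 1.23. The macrophage list had a median of -2.85, with 5 of 6 genes at least 2-fold lower, where 0.948% of all genes were. For this list 1 HFD and 5 ND cells held 10 or more UMIs. In the cells left without those barcodes 1 gene was measured, Bst2, at -0.08. Without the unusual barcodes 17 genes were 2-fold higher and 33 lower of 7070, led by Prg4, Fabp4, Gpx3, Col1a1 and Mgp on the higher side and Acta2, Cebpd, Tagln, Tpm2 and Mustn1 on the lower. Leaving those barcodes out did not remove the cells behind Acta2 and Tagln, since 200 of the 218 Acta2 and 159 of the 167 Tagln UMIs of ND members lay in 1 cell each, and 3.21% and 0% in the barcodes left out. Among the lower genes then were Hspb1, a small heat shock protein, at 204 UMIs per 1000000 in ND and 66.4 in HFD, and Ddit4, a stress-induced inhibitor of mTOR signalling, at 94.5 and 36.7.

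**Figure D5:**
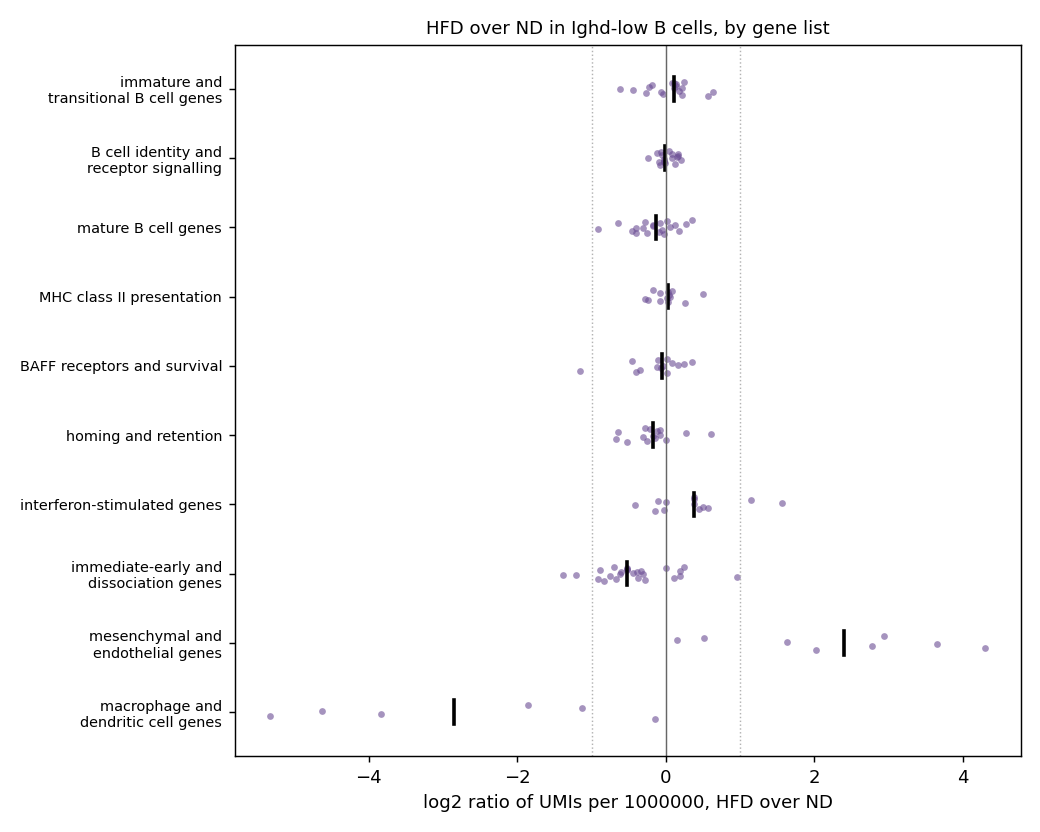
Log2 ratio HFD over ND in Ighd-low B cells for each measured gene of 10 lists (points) and the list median (black bars), with 2-fold as dotted lines. B cell lists centre near 0, the immediate-early list lies at -0.52, and the mesenchymal (2.40) and macrophage (-2.85) lists stand apart.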

How the data were processed

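Single-cell 3' libraries were made by the authors from digested femurs and tibias with 10x Genomics Chromium, and the submitters' processing notes name Cell Ranger 6.0.1 and mm10. The annotation version was not stated. The deposited values were raw UMI counts for 32285 genes, 1 matrix per diet, pooled over the samples the labels list, so p-values and SDs between diets do not exist. Barcodes were kept and gated as the report states. Doublets were kept in the values reported, and Scrublet through scanpy 1.11.5 served as an alternative: its automatic limit marked 9 ND and 10 HFD cells (0.149% and 0.161%) and had not worked, so a score of 0.25 was used after seeing the data, which marked 106 and 85 cells, 10 and 8 of them Ighd-low. Levels were summed UMIs per 1000000 with exact Poisson intervals, shares had Clopper-Pearson intervals at 95%, and ratios were log2 ratios of summed levels with 0.5 added, for genes with at least 50 UMIs. Intervals cover counting error only. A list's interval is the median of its genes' lower and upper bounds. Shares of cells with a UMI were also given at 1000 UMIs per cell, which left out 2 ND and 1 HFD members as shallower. A call is a 2-fold difference, without a test. Genes of the rule were left out of lists and counts. Named genes were the members of the lists, the 5 leading V segments per family and the 10 highest and lowest genes of each comparison. The members and lists were chosen with earlier results of these data known. The code was tested on simulated data with known ratios (Python 3.11.15, numpy 2.4.6, scipy 1.17.1). Some named genes are not reported here.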

Additional observations from a re-analysis of the deposited data

Results flagged for a closer look

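6 genes were past 2-fold in opposite directions in ND and HFD when Ighd-low cells were compared with Ighd-positive cells, out of 5921 genes measured in both libraries, and the difference between the libraries was not tested. Without the unusual barcodes 0 of the 6 were past 2-fold in opposite directions. Jchain had log2 ratios of -3.13 in ND and 8.59 in HFD, and of 1.02 and 0.86 without those barcodes. In HFD 2 Ighd-low barcodes held 99.6% of its UMIs, and in ND 1 Ighd-positive barcode held 113. Tagln had log2 ratios of 4.42 and -2.46, and of 4.38 and -0.14 without them. Acta2 had 3.96 and -1.58, and 4.23 and 0.10 without them. In ND 159 of the 167 Tagln and 200 of the 218 Acta2 UMIs of Ighd-low cells lay in 1 cell each, and in HFD 82.6% of the Tagln and 80.7% of the Acta2 UMIs of Ighd-positive cells lay in unusual barcodes. Fabp4, a fatty acid binding protein, had log2 ratios of 3.06 and -1.22, and of 1.12 (-0.01 to 2.74) and 1.32 (0.72 to 2.03) without them, so that the HFD sign turned. Ccl5, a chemokine of T and NK cells, had 1.16 and -1.49, and -0.12 and -1.58 without them. Lgals3, a galectin, had -1.55 and 1.08, and -0.44 and 0.27 without them.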

How the results depend on the processing

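No paired analysis was possible because each diet was deposited as 1 pooled matrix whose columns carry no replicate numbers; leaving out a replicate was not possible either. Of 129 values under the first set of alternatives 117 stayed within their counting interval and 12 moved. All 51 values under alternatives added after seeing the data (both kinds of unusual barcodes left out, singly and together) stayed. None changed sign beyond its counting interval. Within it, the class II median of HFD over ND turned from 0.02 to -0.01 with Ighd at 0. It was -0.04 without barcodes holding other cell types' genes, and also just below 0 without both kinds. With every cell thinned to 2000 UMIs before the rule, more cells fall below the Ighd limit: Ighd-low cells were 77.1% of gated B cells in ND and 69.6% in HFD and 10.6% of kept cells in HFD, and the immature list median against Ighd-positive cells was 0.48 (-0.06 to 1.21) in ND and 0.59 (-0.09 to 1.26) in HFD and the mature median -0.28 (-0.96 to 0.29) in HFD. With Ighd at 0, the shares were 9.49% and 7.62% of kept and 58.25% and 49.2% of gated B cells, cells with 1 Ighd UMI being in no group. The lambda shares under the strict call were 37.25% and 32.6%. In each of these the share of gated B cells stayed higher in ND.

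Counts of 2-fold genes depended on the gene minimum and on few cells. HFD over ND gave 96 higher and 71 lower genes, 258 and 231 at a minimum of 20 UMIs, 2076 and 2140 at 1 UMI, 23 and 30 after thinning, 27 and 45 without barcodes holding other cell types' genes, and 17 and 33 without both kinds of unusual barcodes. With each cell at the same weight it gave 111 higher and 51 lower. Ighd-low over Ighd-positive gave 328 higher and 94 lower in ND and 341 and 117 in HFD, 728 and 205 and 746 and 251 at a minimum of 20, and 2190 and 1412 and 2010 and 1668 at 1 UMI. Depth limits the view of single cells: Cd93, at 79.8 UMIs per 1000000 in ND, comes to less than 1 UMI in a cell of the median depth of 3770 UMIs, so a cell without its UMI is not shown to lack the gene.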

Other observations

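Genes of other B cell programmes were also measured in Ighd-low cells. Against Ighd-positive cells, marginal zone and B-1 genes had median log2 ratios of 0.50 in ND and 0.75 in HFD, with 2 of 8 and 2 of 7 at least 2-fold higher and 0 lower, where 5.08% and 5.58% of all genes were higher and 1.46% and 1.92% lower. Without the unusual barcodes the medians were 0.25 and 0.84, with 1 of 7 and 3 of 7 higher. Bhlhe41, a factor of B-1 cells, stood at 157 and 128 UMIs per 1000000 against 76.6 and 57.4, and Cd9, a tetraspanin, at 55.7 and 72.2 against 23.8 and 41.6. In this list 6 genes lay above 0 and 2 below in ND, and 6 and 1 in HFD. Plac8, its most abundant gene, was lower, at 406.5 and 385.2 against 459.4 and 409.6. Genes of BAFF receptors and survival had medians of -0.07 and 0.12, with 1 gene lower in each, Bcl2a1b (log2 ratios of -1.28 and -2.07). Identity and receptor signalling genes had medians of 0.29 and 0.30, with 1 of 18 higher in each, a share near that of all genes. This gene was the inhibitory co-receptor Cd72, at 674 and 777 against 320 and 289. Homing genes had medians of -0.35 and -0.25, with 4 of 15 and 4 of 14 lower (medians of -0.10 and -0.20 without the unusual barcodes), among them Ccr6, the receptor for Ccl20, at 11.3 and 7.76 against 33.1 and 27.0. Cxcr4, which holds B cells in marrow, was near 0 in both, with log2 ratios of -0.03 and 0.01. Of the immediate-early and dissociation genes, 5 of 26 in ND and 3 of 25 in HFD were at least 2-fold lower in Ighd-low than in Ighd-positive cells and 0 higher. In ND 23 lay below 0 and 3 above, in HFD 18 below and 7 above, and the medians were -0.34 and -0.22. Hspa1a stood at 1352 and 519 against 3446 and 1532.

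V segments were thinly covered. A UMI of any heavy chain V segment was found in 22.9% of ND and 23.0% of HFD Ighd-low cells, of a kappa V segment in 57.8% and 54.0% and of a lambda V segment in 25.1% and 21.2%. Of 160 kappa V segments listed, 81 in ND and 76 in HFD had a UMI. The same 5 kappa segments had the highest cell counts in both libraries: Igkv1-110 in 59 ND and 31 HFD cells, Igkv1-117 in 56 and 39, Igkv12-46 in 50 and 29, Igkv12-89 in 47 and 36 and Igkv1-135 in 39 and 46. Among lambda segments Iglv1 was found in 112 and 84 cells, Iglv3 in 76 and 46 and Iglv2 in 10 and 8, with 121 of the 130 HFD UMIs of Iglv2 in 1 cell.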
